A study of Mus musculus with 9 samples.

Results

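Glycosaminoglycans are long sugar chains, and most of them are attached to a core protein, which together with its chains is called a proteoglycan. The genes described here are 49 listed mouse genes for cell-surface proteoglycans and for the enzymes that start, extend, sulfate or trim heparan sulfate and chondroitin sulfate, with the hyaluronan synthases. They were found by matching the array platform's gene symbols to that list, and 47 of the 49 had a probe set, 92 probe sets in all, out of 18193 genes with a value in the whole series. Xylt1 and Ndst1 matched no probe set and were not analysed here. Of the 47, 36 were tested, because their value reached 5 on the log2 scale on at least 3 of the 9 arrays, and 11 stayed under that filter. In spheres of dorsal root ganglion cells grown with BMP4, 20 of the 36 tested genes were higher and 4 were lower than in spheres grown without it. Of all 10319 genes tested, 22.6% were higher and 21.3% lower. Of the 36, 8 passed the filter only through the spheres with BMP4, which favours a higher value there, and 2 only through the others, which favours a lower one. None of the 36 was called different between ganglion spheres without BMP4 and spinal cord spheres, where 1 of all genes tested was.

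As background, heparan sulfate and chondroitin sulfate are built in the Golgi on serines of a core protein, from a shared linker sugar. Enzymes then add sulfate from a common donor and convert some of the uronic acids, and the resulting pattern of sulfate groups affects which growth factors bind. Cell-surface heparan sulfate is a co-receptor for fibroblast growth factors and also binds bone morphogenetic proteins and Wnts, while chondroitin sulfate proteoglycans are abundant in cartilage and in the matrix of the developing nervous system. Hyaluronan is different, since it carries no sulfate and no core protein and is made at the plasma membrane.

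The 3 groups had 3 arrays each, hybridised with RNA of passage 3 neurospheres, free-floating colonies, from C57BL/6J mouse embryos of embryonic day 12.5. BMP NCSC were spheres from dorsal root ganglia (DRG), sensory ganglia that arise from the neural crest, grown with 10 ng/ml BMP4. rNCSC were DRG spheres without BMP4, which the labels describe as reprogrammed, and SCSC were spinal cord spheres without BMP4. Every medium held 20 ng/ml bFGF, 20 ng/ml EGF and 0.5 U/ml heparin, itself a highly sulfated glycosaminoglycan, so no group lacked an added heparan-like chain. BMP NCSC and rNCSC thus differed by BMP4, whereas BMP NCSC and SCSC differed by BMP4 and by tissue. Whether the arrays of 1 kind of sphere stand for separate embryos or dishes is not in the labels, so p-values measure the spread between these arrays, which may be technical.

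All values below are deposited log2 expression values, and a difference of 1 is a doubling. Array medians lay between 3.99 and 4.03, and 38.7% to 39.9% of probe sets reached 5. The authors' processing makes arrays alike in distribution, so these figures describe the processed values and cannot show that the samples were alike. Correlations between arrays of a group lay between 0.9861 and 0.9966. A gene was called when its adjusted p in limma was under 0.05 and its log2 difference at least 1, and "higher", "lower", "rose" and "fell" are used for called genes. Levels of different genes are not compared, because probes differ in brightness. Values under about 4 are close to the array's floor, so the size of a difference from such a value is uncertain. Spheres are mixtures of cells, and in such bulk samples fewer cells of a type and less RNA per cell cannot be told apart.

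Markers of cell types moved strongly with BMP4 as well, and their part in the results below was not tested. All 6 CNS neural progenitor markers (Olig1, Olig2, Pax6, Sox1, Zic1 and Fabp7) were lower in BMP NCSC, with a mean over the list of 2.22 to 2.27 there, against 11.27 to 11.61 in rNCSC and 11.30 to 11.59 in SCSC. Of 6 neural crest and Schwann cell precursor markers, 5 were higher, with list means of 9.03 to 9.35 in BMP NCSC, 3.35 to 3.65 in rNCSC and 3.27 to 3.40 in SCSC, while Foxd3 was under 4 in every group. In rNCSC, which come from a crest-derived ganglion, 4 of those 6 markers were under 4. Of 6 cartilage markers, 4 were higher, with list means of 9.88 to 10.33 in BMP NCSC, 3.16 to 3.51 in rNCSC and 3.07 to 3.27 in SCSC. Matn1 was under 4 in BMP NCSC too, and Snorc, at 4.04 there, stayed under the filter. Meningeal fibroblast markers (3 of 6 higher, list means 6.92 to 7.90 in BMP NCSC, 2.53 to 2.96 in rNCSC and 2.46 to 2.67 in SCSC) and smooth muscle markers (2 of 4 higher, list means 5.94 to 7.28 in BMP NCSC, 3.78 to 3.88 in rNCSC and 3.72 to 3.86 in SCSC) moved the same way only in part. The meningeal markers Aldh1a2 and Slc6a13 and the smooth muscle markers Cnn1 and Myh11 were under 4 in every group. The 3 measured markers of dividing cells were lower, at 5.46 to 6.24 in BMP NCSC, 11.61 to 11.76 in rNCSC and 11.65 to 11.78 in SCSC. The 4 pan-neuronal markers had list means of 4.10 to 5.36 in BMP NCSC, 4.04 to 5.11 in rNCSC and 4.78 to 4.96 in SCSC. Of these, Snap25 was higher in BMP NCSC than in rNCSC (1.88), and Tubb3 (-1.23) and Elavl3 (-1.24) were lower than in SCSC. No peripheral neuron marker passed the filter. Every measured marker of endothelium, macrophages and erythroid cells stayed under 4 in all 3 groups.

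In BMP NCSC against rNCSC, 20 of the 36 tested genes (55.6%) were higher, where 22.6% of all 10319 genes tested were higher, and 4 (11.1%) were lower, where 21.3% of all genes were. The counts against SCSC were also 20 and 4, beside 22.9% and 24.0% of all genes. The median difference over the 36 genes was 1.35 against rNCSC and 1.39 against SCSC, and over all genes tested it was -0.07 and -0.10. Both comparisons use the same BMP NCSC arrays, so the second is not separate evidence, and its values are given beside the first. The filter matters for these counts. Of the 36 genes, 8 passed it only through BMP NCSC (Gpc3, Papss2, Extl1, Sulf1, Chst12, Chst15, Dse and Has2), and 2 passed only through rNCSC and SCSC (Gpc2 and Cspg5). For the 8 the filter itself favoured a higher value in BMP NCSC and for the 2 a lower one, though it did not fix the call. The other 26 could have moved either way, and of these 12 were higher and 2 lower against rNCSC. The shares of all genes given above include genes that passed through BMP NCSC alone or through rNCSC and SCSC alone. They are therefore not a like background for these 26, and a share for such genes is not given here. With no filter, 20 of 47 genes (42.6%) were higher, beside 14.4% of all genes, and 5 (10.6%) lower, beside 12.6%, the added gene being Hs3st1.

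**Figure D1:**
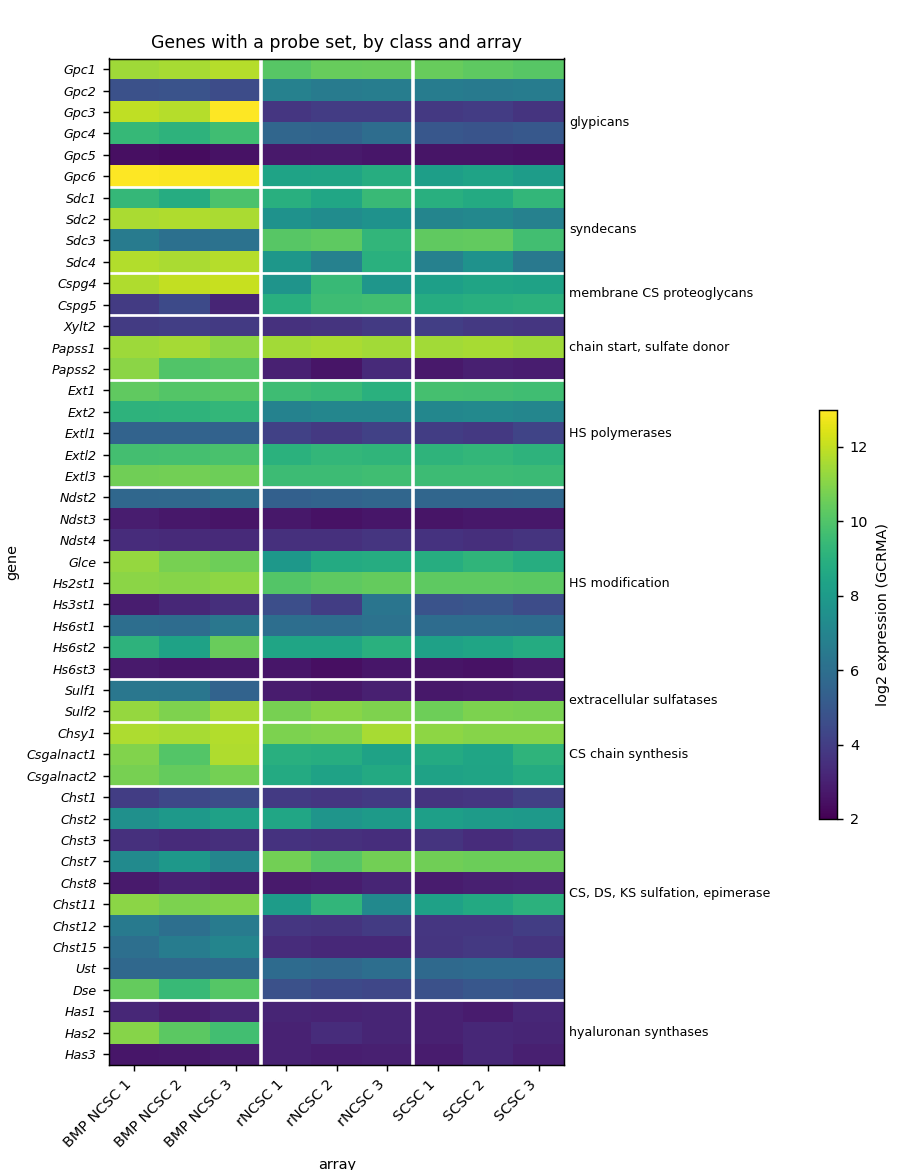
Deposited log2 values of the measured genes (rows, by class) on each of the 9 arrays (columns: BMP NCSC, rNCSC and SCSC, 3 arrays each), with colour from low to high log2 value. BMP NCSC columns differ from the other 6, for example in Gpc3, Papss2 and Has2, whereas rNCSC and SCSC columns look alike.

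Glypicans are heparan sulfate proteoglycans held to the outer membrane by a lipid anchor, where they modulate hedgehog, Wnt, BMP and FGF signals. Of 5 tested glypicans, 4 were higher in BMP NCSC and 1 was lower, against rNCSC and against SCSC. Of all genes tested, 22.6% were higher and 21.3% lower against rNCSC. The filter favoured a higher value for Gpc3, which passed only through BMP NCSC. It favoured a lower value for Gpc2, which passed only through rNCSC and SCSC. Gpc3, a regulator of body growth, was at 11.93, 11.78 and 13.01 in the BMP NCSC arrays, against 3.72, 3.94 and 3.97 in rNCSC and 3.84, 3.94 and 3.64 in SCSC. It was thus near the floor in all 6 arrays without BMP4 and high in all 3 with it, with a difference of 8.37 (SE 0.29, adjusted p = 3.11e-08) from rNCSC and 8.43 (SE 0.29, adjusted p = 2.84e-08) from SCSC. Gpc4, which lies next to Gpc3 on the X chromosome with 0 protein-coding genes between them in GRCm38.p6, was at 9.37, 9.11 and 9.64 in BMP NCSC, against 5.61, 5.55 and 5.92 in rNCSC and 5.00, 4.87 and 5.05 in SCSC. BMP NCSC lay above the other 6 arrays without overlap, by 3.68 from rNCSC (12.8-fold; SE 0.15, adjusted p = 9.28e-08) and by 4.40 from SCSC (21.2-fold; SE 0.15, adjusted p = 3.02e-08).

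Gpc6, a glypican with a role in skeletal growth in humans, was at 12.97, 12.94 and 12.85 in BMP NCSC, against 8.39, 8.42 and 8.87 in rNCSC and 8.16, 8.37 and 8.06 in SCSC. It was well measured in every group and 20.5-fold higher with BMP4 (difference 4.36, SE 0.14, adjusted p = 2.42e-08), or 26.5-fold against SCSC (4.73, SE 0.14, adjusted p = 1.43e-08). Its neighbour Gpc5 on chromosome 14, also with 0 protein-coding genes between the pair, was under the filter, with means of 2.45 in BMP NCSC, 2.75 in rNCSC and 2.61 in SCSC. So the X-linked neighbours both rose, and of the chromosome 14 neighbours Gpc6 rose while Gpc5 stayed at the floor. Gpc1 moved least among the higher glypicans, at 11.45, 11.57 and 11.79 in BMP NCSC, against 10.16, 10.45 and 10.47 in rNCSC and 10.43, 10.27 and 10.16 in SCSC. Its arrays did not overlap with the others (difference 1.24, SE 0.13, adjusted p = 2.94e-05 from rNCSC, and 1.32, SE 0.13, adjusted p = 1.89e-05 from SCSC). Tested against a difference of 1 rather than 0, Gpc1 was not called (adjusted p = 0.138 from rNCSC and 0.0572 from SCSC). Gpc2, known from neurons and their progenitors, went the other way, with a mean of 4.70 ± 0.114 in BMP NCSC, 6.69 ± 0.129 in rNCSC and 6.58 ± 0.0997 in SCSC (SD, n = 3 each). The difference was -1.99 from rNCSC (SE 0.10, adjusted p = 3.82e-07) and -1.88 from SCSC (SE 0.10, adjusted p = 5.09e-07).

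Promoter windows are shown for 4 core protein genes, picked by how they moved. They are the neighbours Gpc3 and Gpc4, and the syndecans Sdc4 and Sdc3, of which the first was higher and the second lower in BMP NCSC. BMP4 acts through SMAD proteins, but whether SMAD proteins act on these genes was not tested. Each window is from RefSeq on GRCm38.p6, reads 5′ to 3′ on the gene's strand and runs from 250 bases before the gene's start to 50 after it. Capitals mark GGCGCC, a GC-rich SMAD element, whose letters are the same on both strands. Gpc3 is chrX:52613925-52614224 (minus strand), Gpc4 is chrX:52164874-52165173 (minus), Sdc4 is chr2:164443139-164443438 (minus) and Sdc3 is chr4:130792287-130792586 (plus).
Gpc3: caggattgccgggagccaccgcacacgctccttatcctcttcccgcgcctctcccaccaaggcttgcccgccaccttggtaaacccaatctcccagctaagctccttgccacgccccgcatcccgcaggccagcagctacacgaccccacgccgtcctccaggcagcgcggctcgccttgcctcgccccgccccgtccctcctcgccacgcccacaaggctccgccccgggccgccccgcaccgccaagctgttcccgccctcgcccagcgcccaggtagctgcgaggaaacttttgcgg
Gpc4: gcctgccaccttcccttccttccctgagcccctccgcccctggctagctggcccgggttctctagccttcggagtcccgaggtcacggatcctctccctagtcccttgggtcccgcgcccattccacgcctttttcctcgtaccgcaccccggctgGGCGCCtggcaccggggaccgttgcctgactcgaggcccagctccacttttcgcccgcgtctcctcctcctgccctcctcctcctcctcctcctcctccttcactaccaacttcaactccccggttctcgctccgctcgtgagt
Sdc4: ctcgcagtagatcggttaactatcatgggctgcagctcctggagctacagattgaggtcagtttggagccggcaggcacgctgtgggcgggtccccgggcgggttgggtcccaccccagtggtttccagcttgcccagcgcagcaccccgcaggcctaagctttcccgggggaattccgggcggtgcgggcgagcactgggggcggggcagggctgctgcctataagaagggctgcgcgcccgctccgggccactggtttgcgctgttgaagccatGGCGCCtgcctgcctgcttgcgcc
Sdc3: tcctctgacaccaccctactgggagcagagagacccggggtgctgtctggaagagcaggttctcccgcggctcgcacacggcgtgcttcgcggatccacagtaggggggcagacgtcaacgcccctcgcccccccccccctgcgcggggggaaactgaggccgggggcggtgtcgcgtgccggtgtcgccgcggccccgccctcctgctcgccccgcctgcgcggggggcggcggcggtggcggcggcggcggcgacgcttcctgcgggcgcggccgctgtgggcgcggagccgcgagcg
The Gpc4 and Sdc4 windows hold the letters once each, and the Gpc3 and Sdc3 windows do not hold them. In the Sdc4 window they lie within the 50 bases after the gene's start. A window was found for 36 of the 49 genes, 44 windows in all, of which 10 (22.7%) held GGCGCC, against 3898 of the 32851 windows in the table (11.9%). By call in BMP NCSC against rNCSC, these were 5 of 16 windows of higher genes, 0 of 3 of lower genes, 3 of 15 of tested genes not called and 2 of 10 of genes not tested. The median GC content was 66.3% in the 44 windows and 52.7% in all windows, and letters made of G and C are commoner where GC content is high. The palindromic SMAD element GTCTAGAC was in 0 of 44 windows, against 70 of all windows (0.213%). A match is a string of letters and not a measured binding site.

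Syndecans carry heparan sulfate on a core that crosses the membrane, and they act with integrins and growth factor receptors. Of the 4 syndecans, Sdc2 and Sdc4 were higher in BMP NCSC, Sdc3 was lower and Sdc1 was not called, in both comparisons. Over all genes tested, 22.6% were higher and 21.3% lower against rNCSC. Sdc2, the form typical of mesenchymal cells, was at 11.59, 11.71 and 11.61 in BMP NCSC, against 7.60, 7.33 and 7.60 in rNCSC and 7.00, 7.13 and 6.84 in SCSC. The BMP NCSC arrays sat closely together and far above the rest, by 4.13 from rNCSC (17.5-fold; SE 0.11, adjusted p = 7.99e-09) and 4.65 from SCSC (25.1-fold; SE 0.11, adjusted p = 4.05e-09). Sdc4, a focal adhesion component, was at 11.72, 11.61 and 11.79 in BMP NCSC, against 7.82, 6.85 and 8.98 in rNCSC and 6.83, 7.61 and 6.45 in SCSC. All BMP NCSC arrays were above the others, although rNCSC spread widely (SD 1.07), and the difference was 3.82 from rNCSC (SE 0.49, adjusted p = 1.06e-04) and 4.74 from SCSC (SE 0.49, adjusted p = 2.48e-05).

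Sdc3, the syndecan of neural tissue, was at 6.59, 6.05 and 6.16 in BMP NCSC, against 10.16, 10.29 and 9.24 in rNCSC and 10.33, 10.35 and 9.68 in SCSC. It was lower in each BMP NCSC array than in any other array, by 12.4-fold against rNCSC (difference -3.63, SE 0.31, adjusted p = 7.11e-06) and 14.5-fold against SCSC (-3.86, SE 0.31, adjusted p = 4.48e-06). With the mean of its probe sets the differences were smaller, -2.16 from rNCSC and -2.24 from SCSC, and still called. Sdc1, typical of epithelia and plasma cells, was at 9.33, 8.82 and 9.88 in BMP NCSC, against 8.96, 8.49 and 9.45 in rNCSC and 8.95, 8.72 and 9.29 in SCSC. The 3 groups overlapped, and the 95% interval of the difference from rNCSC ran from -0.34 to 1.10 (0.38, SE 0.32, adjusted p = 0.295), which leaves room for a doubling. Other probe sets of Sdc1 were not called either. Their differences were 0.88 (SE 0.15) and 0.44 (SE 0.17) from rNCSC, and 0.76 (SE 0.15) and 0.10 (SE 0.17) from SCSC.

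The pair of membrane chondroitin sulfate proteoglycans moved in opposite directions. Cspg4, also called NG2 and known from oligodendrocyte precursors, pericytes and mesenchymal cells, was at 11.68, 11.98 and 12.08 in BMP NCSC, against 7.70, 9.40 and 7.77 in rNCSC and 8.21, 8.41 and 8.33 in SCSC. It was higher in every BMP NCSC array than in any other, with a difference of 3.62 (SE 0.40, adjusted p = 4.07e-05) from rNCSC and 3.60 (SE 0.40, adjusted p = 3.92e-05) from SCSC, and rNCSC replicate 2 stood above the other rNCSC arrays. Cspg5, neuroglycan C of the brain, was at 3.92, 4.45 and 3.16 in BMP NCSC, against 8.92, 9.58 and 9.69 in rNCSC and 8.80, 8.96 and 9.05 in SCSC. BMP NCSC arrays were near the floor and did not overlap with the others (-5.56, SE 0.32, adjusted p = 6.71e-07 from rNCSC, and -5.09, SE 0.32, adjusted p = 1.07e-06 from SCSC). Of the 11 tested core protein genes, the 3 that were lower, Gpc2, Sdc3 and Cspg5, are known mainly from neural cells. Of these, Gpc2 and Cspg5 passed the filter only through rNCSC and SCSC, which favours a lower value in BMP NCSC. Over all genes tested, 21.3% were lower against rNCSC. Cspg4, known from oligodendrocyte precursors among other cells, was higher. The CNS progenitor markers fell in the same arrays, and their part was not tested.

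**Figure D2:**
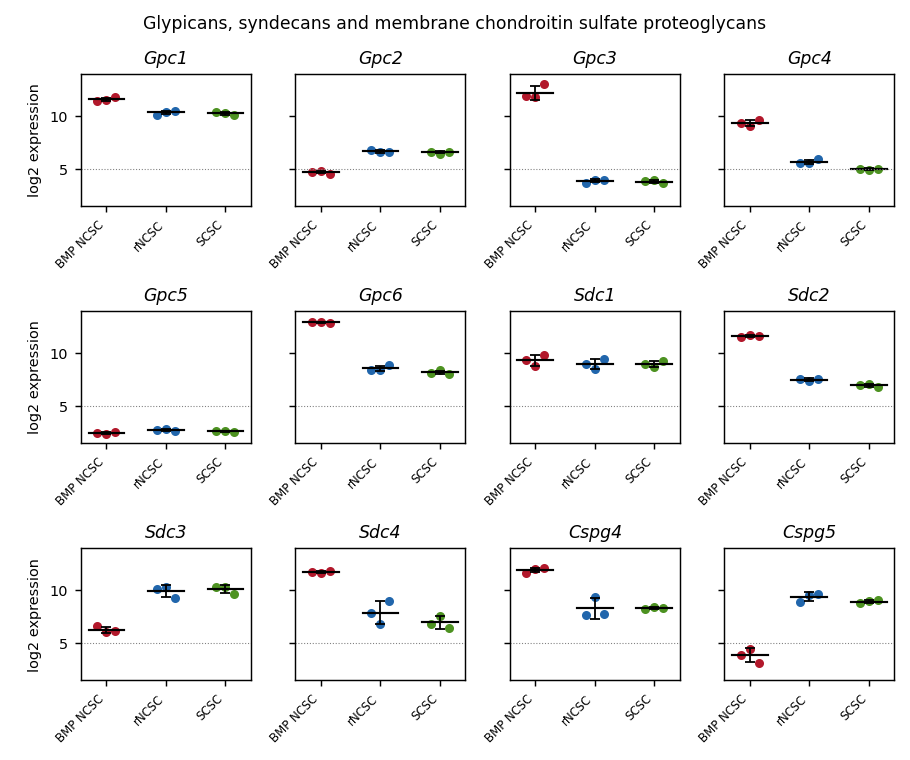
Log2 value of each array (points) and group mean for the glypicans, syndecans and membrane chondroitin sulfate proteoglycans, with BMP NCSC left of rNCSC and SCSC. Gpc3, Gpc4, Gpc6, Sdc2, Sdc4 and Cspg4 are higher and Gpc2, Sdc3 and Cspg5 lower in BMP NCSC, while Sdc1 overlaps between all groups.

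Among the genes that start chains or supply sulfate, the synthases of the sulfate donor PAPS differed from each other. Papss2, whose loss in mice stunts the growth of cartilage, was at 11.07, 10.01 and 10.15 in BMP NCSC, against 2.99, 2.61 and 3.30 in rNCSC and 2.77, 2.95 and 2.87 in SCSC. It was at the floor in the 6 arrays without BMP4 and high in all 3 with it (7.44, SE 0.28, adjusted p = 5.10e-08 from rNCSC, and 7.54, SE 0.28, adjusted p = 4.48e-08 from SCSC). With the mean of its probe sets the differences were 3.02 from rNCSC and 3.11 from SCSC. Papss1, the widely expressed synthase, was at 11.40, 11.50 and 11.11 in BMP NCSC, against 11.46, 11.61 and 11.46 in rNCSC and 11.47, 11.57 and 11.42 in SCSC. The groups overlapped, and the interval of the difference from rNCSC, -0.43 to 0.09, holds no change of 1 (-0.17, SE 0.12, adjusted p = 0.204). Xylt2, a xylosyltransferase that adds the first sugar to the core protein, was under the filter, with means of 3.95 in BMP NCSC, 3.70 in rNCSC and 3.87 in SCSC.

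The EXT family extends heparan sulfate, and Ext1 and Ext2 act together as the polymerase. Of 5 tested members, 3 were higher in BMP NCSC and none lower, in both comparisons. Against rNCSC, 22.6% of all genes tested were higher and 21.3% lower. One of the 3, Extl1, passed the filter only through BMP NCSC, which favours a higher value there. Ext2 was at 9.12, 9.16 and 9.29 in BMP NCSC, against 6.86, 7.03 and 7.05 in rNCSC and 7.10, 7.18 and 7.03 in SCSC. This was a 4.61-fold difference from rNCSC without overlap (2.21, SE 0.09, adjusted p = 9.81e-08) and a 4.24-fold difference from SCSC (2.08, SE 0.09, adjusted p = 1.26e-07). Ext1 was at 10.30, 10.05 and 10.12 in BMP NCSC, against 9.58, 9.41 and 8.98 in rNCSC and 9.76, 9.72 and 9.63 in SCSC. Its BMP NCSC arrays were also above the other 6, but by less than the size limit, with 0.84 from rNCSC (95% interval 0.49 to 1.19, SE 0.15, adjusted p = 9.56e-04) and 0.46 from SCSC (SE 0.15, adjusted p = 0.0223). Extl3, which adds the first sugar that commits a chain to heparan sulfate, was at 10.63, 10.67 and 10.59 in BMP NCSC, against 9.53, 9.52 and 9.63 in rNCSC and 9.52, 9.56 and 9.50 in SCSC. Its difference of 1.07 (SE 0.08, adjusted p = 2.37e-06) from rNCSC was just past the size limit, as was that of 1.11 (SE 0.08, adjusted p = 1.74e-06) from SCSC. Extl1 averaged 5.49 ± 0.0249 in BMP NCSC, 4.02 ± 0.186 in rNCSC and 4.02 ± 0.203 in SCSC (SD, n = 3 each), a difference of 1.47 from rNCSC (SE 0.13, adjusted p = 9.95e-06). Extl2, a transferase of the linker region, averaged 9.76 in BMP NCSC and 9.17 in rNCSC, and its difference of 0.59 (SE 0.10, adjusted p = 5.83e-04) stayed under the size limit. With the mean of all probe sets of a gene in place of the one with the highest mean, Ext2 (0.68 from rNCSC) and Extl3 (0.67 from rNCSC) no longer reached the size limit.

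Of 5 tested enzymes that modify heparan sulfate, Glce was called higher and none was called lower, a share near the 22.6% of all genes called higher, and 4 of the 9 measured stayed under the filter. Glce, the epimerase that turns glucuronic into iduronic acid, was at 11.28, 10.74 and 10.56 in BMP NCSC, against 7.87, 8.74 and 8.81 in rNCSC and 8.84, 9.21 and 8.86 in SCSC. All BMP NCSC arrays were above the others, by 2.38 from rNCSC (5.21-fold; SE 0.28, adjusted p = 5.66e-05) and 1.89 from SCSC (3.70-fold; SE 0.28, adjusted p = 2.35e-04), but with the mean of its probe sets by 1.09 from rNCSC and 0.82 from SCSC, the second under the size limit. Hs2st1, which sulfates the iduronic acid, was at 11.10, 11.00 and 11.12 in BMP NCSC, against 10.05, 10.27 and 10.42 in rNCSC and 10.28, 10.28 and 10.21 in SCSC. It did not overlap but stayed under the size limit (0.83, 95% interval 0.59 to 1.07, SE 0.10, adjusted p = 9.46e-05), and its probe sets disagreed, with differences of -0.77 (SE 0.14) and -0.61 (SE 0.08) for the other 2 tested. Hs6st2, a 6-O-sulfotransferase, averaged 9.31 ± 1.08 in BMP NCSC, 8.65 ± 0.297 in rNCSC and 8.50 ± 0.244 in SCSC (SD, n = 3 each), a difference of 0.67 from rNCSC (SE 0.46, adjusted p = 0.217) that was within the spread of its arrays. Without BMP NCSC replicate 2 it was called higher, with a difference of 1.15 from rNCSC and 1.30 from SCSC. Hs6st1 averaged 6.06 in BMP NCSC and 6.02 in rNCSC (0.04, SE 0.13, adjusted p = 0.766), and Ndst2, an N-deacetylase and N-sulfotransferase, averaged 5.79 in BMP NCSC and 5.51 in rNCSC (0.28, SE 0.11, adjusted p = 0.0375). Ndst3, Ndst4 and Hs6st3 had means under 4 in every group, and Hs3st1, also under the filter, averaged 3.20 ± 0.308 in BMP NCSC, 4.98 ± 1.18 in rNCSC and 4.77 ± 0.202 in SCSC (SD, n = 3 each).

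The extracellular sulfatases remove 6-O-sulfates from heparan sulfate after it has reached the cell surface. Sulf1 averaged 6.06 ± 0.486 in BMP NCSC, 2.83 ± 0.121 in rNCSC and 2.79 ± 0.0656 in SCSC (SD, n = 3 each). It was higher in BMP NCSC, by 3.23 from rNCSC (SE 0.21, adjusted p = 1.55e-06) and 3.26 from SCSC (SE 0.21, adjusted p = 1.34e-06). Sulf2 was at 11.26, 10.87 and 11.50 in BMP NCSC, against 10.75, 11.03 and 10.86 in rNCSC and 10.56, 10.82 and 10.80 in SCSC. BMP NCSC overlapped with rNCSC (0.33, SE 0.17, adjusted p = 0.0943), so of the pair only Sulf1 was called, and the difference between their responses was not tested. The probe sets of Sulf2 disagreed. Another one differed by 0.94 from rNCSC (SE 0.11) and 0.99 from SCSC (SE 0.11), just under the size limit. A weaker one differed by -0.20 from rNCSC (SE 0.10) and -0.21 from SCSC (SE 0.10).

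Chondroitin sulfate chains are begun by Csgalnact1 and Csgalnact2 and extended by Chsy1. The starting enzymes were both higher in BMP NCSC. Csgalnact1 was at 10.92, 10.04 and 11.70 in BMP NCSC, against 8.94, 8.86 and 8.33 in rNCSC and 8.71, 8.46 and 9.15 in SCSC. The lowest BMP NCSC array was above the highest of the others (2.18, SE 0.39, adjusted p = 8.38e-04 from rNCSC, and 2.11, SE 0.39, adjusted p = 9.44e-04 from SCSC). Csgalnact2 was at 10.74, 10.39 and 10.68 in BMP NCSC, against 8.72, 8.34 and 8.69 in rNCSC and 8.32, 8.43 and 8.77 in SCSC. It was higher without overlap, by 2.02 from rNCSC (SE 0.16, adjusted p = 5.31e-06) and 2.09 from SCSC (SE 0.16, adjusted p = 3.89e-06). Chsy1 was at 11.65, 11.57 and 11.74 in BMP NCSC, against 10.83, 10.92 and 11.58 in rNCSC and 11.13, 10.99 and 11.00 in SCSC. The third rNCSC array reached the BMP NCSC range, and the difference of 0.55 (SE 0.18, adjusted p = 0.0222) was under the size limit.

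Of 7 tested enzymes that sulfate or epimerise chondroitin, dermatan and keratan sulfate, 4 were higher in BMP NCSC, 1 was lower and 2 were not called. Chst12, Chst15 and Dse passed the filter only through BMP NCSC, which favours a higher value there. Of the rest, only Chst11 was higher and only Chst7 was lower. Among all genes tested, 22.6% were higher and 21.3% lower against rNCSC. The 4-O-sulfotransferases Chst11 and Chst12 were higher in BMP NCSC, as was Chst15, which adds a 6-O-sulfate to residues that already carry a 4-O-sulfate, and the 6-O-sulfotransferase Chst7 was lower. Chst11, needed for cartilage growth in mice, was at 11.10, 10.84 and 10.93 in BMP NCSC, against 8.07, 9.22 and 7.20 in rNCSC and 8.29, 8.70 and 9.06 in SCSC. The BMP NCSC arrays were tight and above the rest, with rNCSC spread widely (SD 1.02), and the difference was 2.79 (SE 0.44, adjusted p = 3.98e-04) from rNCSC and 2.27 (SE 0.44, adjusted p = 0.00131) from SCSC. Chst12 averaged 6.35 ± 0.299 in BMP NCSC, 3.78 ± 0.125 in rNCSC and 3.82 ± 0.150 in SCSC (SD, n = 3 each), a difference of 2.57 from rNCSC (SE 0.16, adjusted p = 1.01e-06). Chst15 averaged 6.55 ± 0.509 in BMP NCSC, 3.30 ± 0.0715 in rNCSC and 3.74 ± 0.0877 in SCSC (SD, n = 3 each), with a difference of 3.25 from rNCSC (SE 0.22, adjusted p = 1.78e-06). Chst7 was at 7.26, 7.88 and 7.03 in BMP NCSC, against 10.66, 10.15 and 10.67 in rNCSC and 10.62, 10.54 and 10.55 in SCSC. It was 8.62-fold lower than in rNCSC (-3.11, SE 0.22, adjusted p = 2.71e-06) and 9.09-fold lower than in SCSC (-3.18, SE 0.22, adjusted p = 2.15e-06), with no overlap. Chst3, the other chondroitin 6-O-sulfotransferase, was under the filter with means of 3.45 in BMP NCSC, 3.52 in rNCSC and 3.55 in SCSC.

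Dse, the epimerase that turns chondroitin sulfate into dermatan sulfate, was at 10.38, 9.40 and 10.08 in BMP NCSC, against 4.73, 4.47 and 4.33 in rNCSC and 4.72, 4.98 and 4.81 in SCSC. It was higher in BMP NCSC in every array, by 5.45 from rNCSC (SE 0.23, adjusted p = 1.08e-07) and 5.12 from SCSC (SE 0.23, adjusted p = 1.47e-07). Chst2, which sulfates N-acetylglucosamine, was at 7.53, 7.95 and 8.30 in BMP NCSC, against 8.52, 7.74 and 8.01 in rNCSC and 8.20, 8.03 and 7.94 in SCSC. The groups overlapped (-0.17, 95% interval -0.71 to 0.38, SE 0.24, adjusted p = 0.536). Ust, the uronyl 2-O-sulfotransferase, averaged 5.73 in BMP NCSC and 5.84 in rNCSC (-0.11, SE 0.08, adjusted p = 0.262). Chst1 and Chst8 were under the filter, with means of 4.31 and 2.91 in BMP NCSC, 3.82 and 2.93 in rNCSC and 3.82 and 2.96 in SCSC.

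Of the hyaluronan synthases, Has2 was the one measured above the filter. Has2, the synthase needed for heart development in mice, was at 11.01, 10.24 and 9.65 in BMP NCSC, against 3.07, 3.40 and 3.14 in rNCSC and 3.02, 3.22 and 3.15 in SCSC. It was at the floor without BMP4 and far above it in all 3 arrays with it (7.09, SE 0.29, adjusted p = 9.00e-08 from rNCSC, and 7.17, SE 0.29, adjusted p = 7.92e-08 from SCSC). Has1 averaged 3.08 in BMP NCSC, 3.13 in rNCSC and 3.02 in SCSC, and Has3 averaged 2.73 in BMP NCSC, 2.98 in rNCSC and 3.01 in SCSC, so neither was above the floor anywhere. The cartilage markers Col2a1, Acan, Col9a1 and Cnmd were high in the same 3 BMP NCSC arrays in which Papss2, Chst11, Dse and Has2 were high. The other cartilage markers, Matn1 (2.68 in BMP NCSC) and Snorc (4.04), were under the filter. Papss2, Dse and Has2 passed the filter only through BMP NCSC, which favours a higher value there. The part of the cartilage markers was not tested.

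**Figure D3:**
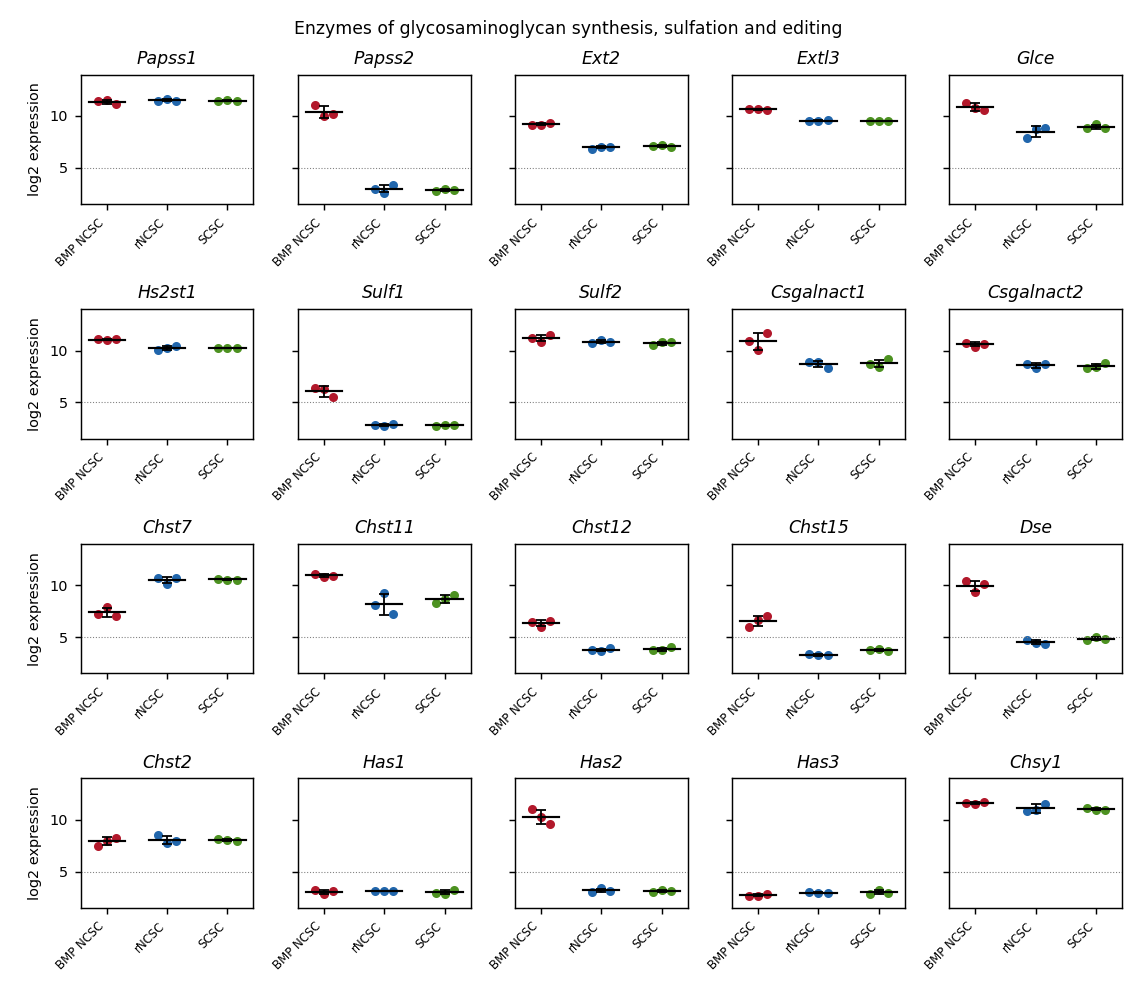
Log2 value of each array (points) and group mean for the chain-building, sulfating and trimming enzymes and the hyaluronan synthases, with BMP NCSC left of rNCSC and SCSC. Papss2, Dse and Has2 are near the floor in rNCSC and SCSC and high in BMP NCSC, Chst7 is lower in BMP NCSC, and Papss1 and Chst2 overlap.

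**Figure D4:**
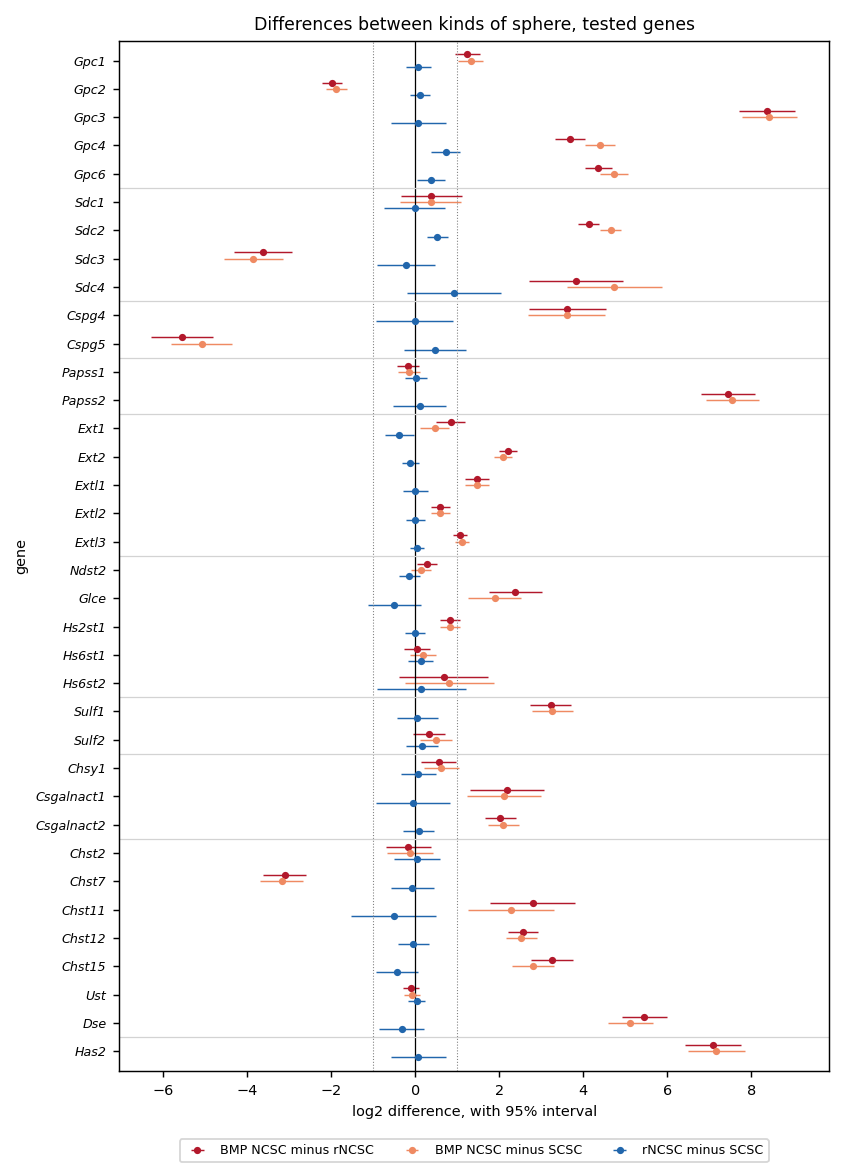
Log2 difference of BMP NCSC minus rNCSC of BMP NCSC minus SCSC and of rNCSC minus SCSC (points, by colour) with 95% intervals (lines) for the 36 tested genes, ordered by class; dotted lines mark 1 and -1. The points of the 20 genes called higher lie at or right of 1, and those of Gpc2, Sdc3, Cspg5 and Chst7 lie left of 0 in both BMP NCSC comparisons, which share the BMP NCSC arrays, while points of rNCSC minus SCSC lie between -0.52 and 0.92.

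Between rNCSC and SCSC, spheres of different tissues in the same medium, none of the 36 genes was called in limma, where 0.00969% of all genes were, and an unadjusted p under 0.05 was reached by 4 genes, beside 13.7% of all genes. These 4 were Gpc4, Sdc2, Gpc6 and Ext1, named after their values were seen, and the lowest adjusted p was 0.169, for Gpc4. The trend and robust form of the same test also called 0 of the genes. Without rNCSC replicate 2, 18 of all genes were called higher and 53 lower, and 0 of the genes described here. For 8 genes (22.2%) the rNCSC arrays lay clear of the SCSC arrays, beside 20.7% of all genes tested. Differences ran from -0.52 for Chst11 to 0.92 for Sdc4, and 32 of 36 were under 0.5 in size. The 95% interval lay within 1 of 0 on either side for 30 of the 36 genes, and the median width to each side was 0.40, so for those 30 a doubling lies outside the interval. It was widest for Sdc4, at 1.13 to each side. The number of arrays limits the precision.

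Other genes of the pathway, 52 listed and 49 with a probe set, were read from the same test. Of 41 tested, 26 were higher in BMP NCSC, 3 were lower and 12 were not called, both against rNCSC and against SCSC. Against rNCSC this was 63.4% higher and 7.32% lower, beside 22.6% and 21.3% of all genes tested. Of these 41 genes, 11 passed the filter only through BMP NCSC, of which 10 were called higher, and the 3 lower genes passed only through rNCSC or SCSC. Of the other 27, which could have moved either way, 16 were higher and 0 lower, and the share of all genes that passed in this way is not given here. Among precursors and transporters 4 of 9 tested were higher. Slc26a2, the sulfate transporter of cartilage, averaged 11.88 ± 0.259 in BMP NCSC, 5.72 ± 0.726 in rNCSC and 6.23 ± 0.174 in SCSC (SD, n = 3 each), a difference of 6.16 from rNCSC (SE 0.32, adjusted p = 3.70e-07). Ugdh, which makes UDP-glucuronic acid, averaged 12.07 in BMP NCSC, 9.30 in rNCSC and 9.92 in SCSC, and Ugp2, which makes UDP-glucose, averaged 13.07 in BMP NCSC, 10.97 in rNCSC and 10.90 in SCSC.

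Of 4 linker region genes 2 were higher, beside 22.6% of all genes tested against rNCSC. They were B4galt7 (8.25 in BMP NCSC, 6.45 in rNCSC, 6.49 in SCSC), which adds a galactose, and Fam20b (10.19 in BMP NCSC, 8.39 in rNCSC, 8.34 in SCSC), which phosphorylates the xylose. The other heparan sulfate 3-O-sulfotransferases were split, Hs3st3a1 being higher at 7.28 in BMP NCSC, against 3.41 in rNCSC and 3.47 in SCSC. Hs3st3b1 was also higher, at 11.11 in BMP NCSC, against 7.27 in rNCSC and 7.90 in SCSC. Hs3st2, known from neurons, was lower at 3.88 in BMP NCSC, against 7.34 in rNCSC and 6.54 in SCSC. Hs3st3a1 passed the filter only through BMP NCSC and Hs3st2 only through rNCSC or SCSC, which favours the direction each took. Only Hs3st3b1 could have moved either way. Among 7 other chondroitin and dermatan sulfate enzymes 5 were tested and called higher, of which Chpf, Chpf2 and Chsy3 passed the filter only through BMP NCSC, which favours a higher value there. Chsy3 averaged 8.77 in BMP NCSC, 3.33 in rNCSC and 3.09 in SCSC. Chst14, which sulfates dermatan sulfate, averaged 8.45 in BMP NCSC, 5.22 in rNCSC and 5.52 in SCSC, and Dsel, another dermatan sulfate epimerase, averaged 10.19 in BMP NCSC, 7.24 in rNCSC and 7.38 in SCSC.

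Of 11 tested genes of chain breakdown 8 were higher, beside 22.6% of all genes. Of these 8, Sgsh, Naglu and Cemip passed the filter only through BMP NCSC, which favours a higher value there. Against rNCSC the largest differences of the 8 were those of the lysosomal enzymes Arsb (9.64 in BMP NCSC, 7.09 in rNCSC, 6.84 in SCSC), Naglu (6.93 in BMP NCSC, 4.59 in rNCSC, 4.51 in SCSC) and Hgsnat (10.43 in BMP NCSC, 8.28 in rNCSC, 8.56 in SCSC). Cd44, the main hyaluronan receptor, averaged 11.77 ± 0.0836 in BMP NCSC, 9.73 ± 0.326 in rNCSC and 9.44 ± 0.0185 in SCSC (SD, n = 3 each), a difference of 2.04 from rNCSC (SE 0.15, adjusted p = 3.24e-06). Hmmr, a hyaluronan-binding protein that also serves the mitotic spindle, fell to 4.02 ± 0.418 in BMP NCSC, against 9.89 ± 0.200 in rNCSC and 9.92 ± 0.266 in SCSC (SD, n = 3 each), in the arrays in which the dividing cell markers were lower. Among 7 other membrane or part-time proteoglycans 4 were higher and 1 lower, beside 22.6% and 21.3% of all genes tested against rNCSC. Tgfbr3, Hspg2 and Col18a1 passed the filter only through BMP NCSC, which favours a higher value there. The lower gene, Ptprz1, passed only through rNCSC or SCSC, which favours a lower one. Of the 3 that could have moved either way, 1 was higher and 0 lower. Tgfbr3, betaglycan, a co-receptor of the TGF-beta family, averaged 9.26 in BMP NCSC, 4.97 in rNCSC and 4.66 in SCSC, and Hspg2, perlecan of basement membranes and cartilage, averaged 9.78 in BMP NCSC, 4.58 in rNCSC and 4.41 in SCSC. Ptprz1, a chondroitin sulfate proteoglycan of neural progenitors and glia, was lower (difference -7.97 from rNCSC), at 4.95 ± 0.872 in BMP NCSC, 12.92 ± 0.151 in rNCSC and 12.84 ± 0.0333 in SCSC (SD, n = 3 each; adjusted p = 1.52e-07).

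**Figure D5:**
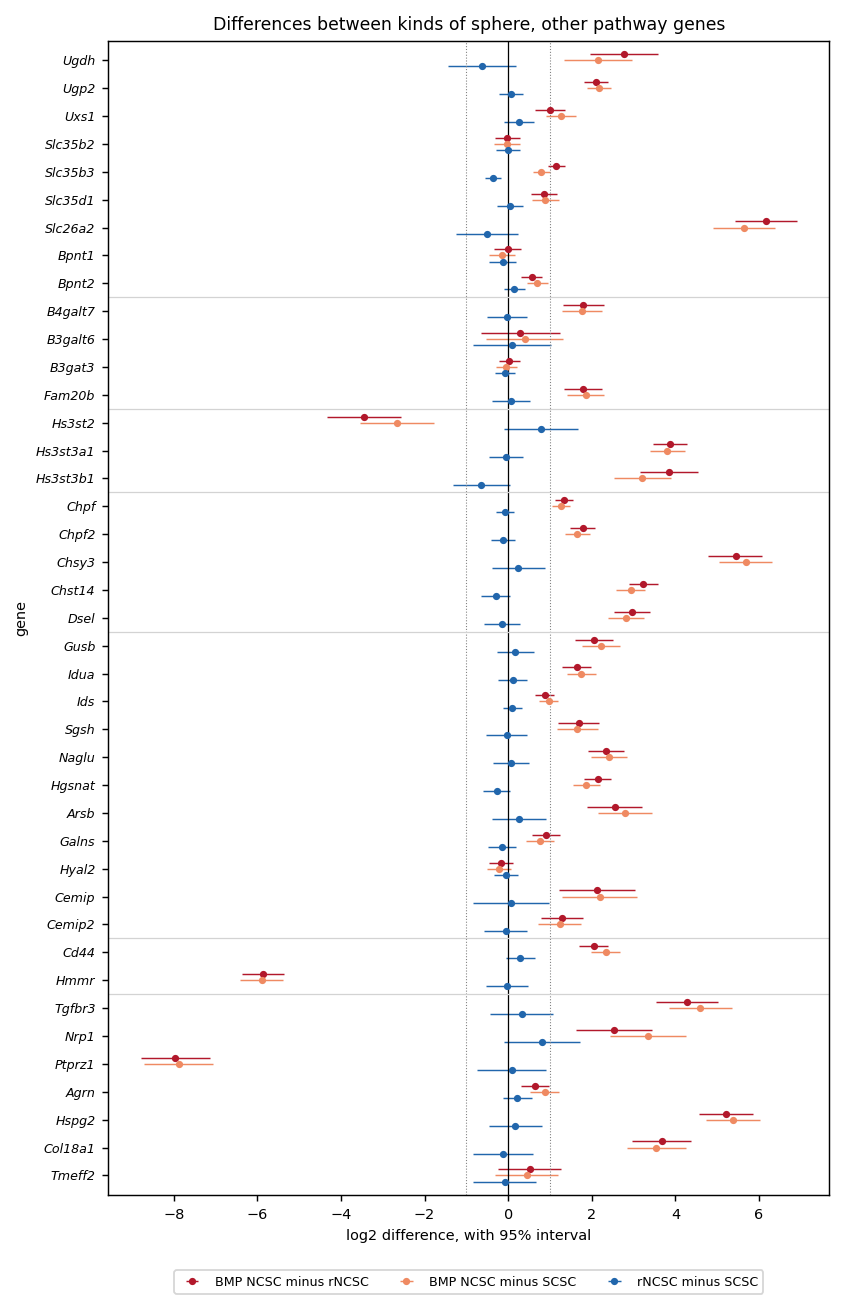
Log2 difference of BMP NCSC minus rNCSC of BMP NCSC minus SCSC and of rNCSC minus SCSC (points, by colour) with 95% intervals (lines) for the 41 other pathway genes tested. Slc26a2, Chsy3 and Hspg2 lie far right of 0 in both BMP NCSC comparisons, and Ptprz1, Hmmr and Hs3st2 lie left of it.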

How the data were processed

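RNA of passage 3 neurospheres, 3 arrays a group, was measured on Affymetrix mouse arrays. The deposited values are log2 expression per probe set, computed by the authors with GCRMA, as the submitters' processing notes say. The version used is not given in the sources. The method corrects background by probe sequence, makes arrays alike in distribution and compresses low values, so a change in total RNA per cell would not show. Of 45101 probe sets, 34945 had 1 symbol in the platform table, with names updated by gene identifier, 932 with several symbols were dropped, and 9160 were not in that table.

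From these values each gene took its probe set with the highest mean, and the 10319 genes at 5 or above on at least 3 arrays were tested. limma 3.58.1 in R 4.3.3 fitted group means over all 9 arrays, with moderated variances (eBayes, 2.38 prior and 6 residual degrees of freedom) and two-sided tests, adjusted by Benjamini-Hochberg over all genes tested. The fit was tested on simulated data. Samples were grouped by title, and a positive difference means higher in the group named first. The genes, lists and markers were chosen with earlier results of these data known. Each array's values are given, in each class, for up to 4 called genes with the largest difference from rNCSC whose higher group averaged 7 or more, and for the uncalled gene with the highest mean. Up to 3 called genes are named in each list of other pathway genes. Alternatives were other filters, probe set rules, normalization, test settings, and leaving out each array.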

Additional observations from a re-analysis of the deposited data

How the results depend on the processing

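Over 20 alternative settings, 1388 of 1418 recomputed differences of the tested genes in the BMP NCSC comparisons kept their direction and side of the call, 9 were no longer called, 12 became called and 9 changed sign. Genes of the list called higher numbered 16 to 25 and lower 3 to 5 over the settings. With adjusted p alone, 25 of them were higher and 4 lower, and of all genes 3793 were higher and 4249 lower against rNCSC (2335 and 2197 with the size limit), and 3777 higher and 4444 lower against SCSC (2366 and 2473 with it). The sign changed for Hs2st1 with the mean of all its probe sets (-0.13 from rNCSC, -0.05 from SCSC), and for Hs6st1 (-0.15 from rNCSC) and Ndst2 (-0.01 from SCSC) with quantile normalization again, none of which was called. Leaving out 1 array, the uncalled Hs6st1 ran from -0.10 to 0.14 from rNCSC, and Chst2 from -0.35 to 0.05 from rNCSC and from -0.32 to 0.07 from SCSC. The calls of Ext2 (0.68 from rNCSC, 0.66 from SCSC), Extl3 (0.67 from rNCSC, 0.63 from SCSC) and, against SCSC, Glce (0.82) were lost with the mean of all probe sets, and those of Gpc1 (adjusted p = 0.138 from rNCSC, 0.0572 from SCSC) and Extl3 (0.478 from rNCSC, 0.232 from SCSC) when tested against a difference of 1. Without BMP NCSC replicate 2, Hs6st2 was called higher (1.15 from rNCSC, 1.30 from SCSC). Between rNCSC and SCSC, 0 genes of all tested were higher and 1 lower. A filter at 7 gave 1 and 3, the trend and robust test 1 and 3, and the 6 arrays alone, the replicate block and the test against a difference of 1 each gave 0 lower. Leaving out 1 array gave 0 to 18 higher and 0 to 53 lower, the highest without rNCSC replicate 2, and 0 of the listed genes each time. The replicate numbers are not said to pair samples. Same-number deviations from the group means correlated at 0.042 to 0.298, with 5 of 9 pairs over 0.1, and in 16 of 18 cases an array correlated best with its own number in the other group. With the replicate block 20 of the listed genes were higher and 4 lower in BMP NCSC against rNCSC, as without it. Values near the array floor limit the size of 7 called differences.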

Other observations

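Some genes of the list varied between arrays of the same kind of sphere, and the arrays that stood apart were not the same for each gene. In rNCSC, replicate 2 was the highest array for Cspg4 (9.40, against 7.70 and 7.77 on the other rNCSC arrays) and for Chst11 (9.22, against 8.07 and 7.20). Replicate 3 was the highest rNCSC array for Sdc4 (8.98, against 7.82 and 6.85) and for Hs3st1 (6.29, the next highest being 4.65), a heparan sulfate 3-O-sulfotransferase that reached 5 on that array alone. In BMP NCSC, replicate 3 was the highest array for Hs6st2 (10.48, against 9.13 and 8.33), Csgalnact1 (11.70, against 10.92 and 10.04) and Gpc3 (13.01, against 11.93 and 11.78), and the lowest for Has2 (9.65, against 11.01 and 10.24). These arrays were picked after their values were seen, and no test was made of them.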
